A study of Mus musculus with 768 samples.

Results

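The genes described are 7 rows, C4b, C3, Serpina3n, Lcn2, Il33, Apod and Saa1, of 32679 gene rows in a single-cell count table from the mouse dentate gyrus. They encode complement components, acute phase proteins and secreted or nuclear products known from reactive glia. The genes were chosen by name with their levels by cell type and their differences between treatments in this table already known, so both are given here as descriptions and the fits lend them no independent support. The gene lists described further below were also chosen with earlier results of these data known. Every gene had a count somewhere: among 675 kept wells, Apod had one in 424, Il33 in 355, C4b in 174, Serpina3n in 74, Saa1 in 17, Lcn2 in 7 and C3 in 5. Apod, Il33, C4b and Serpina3n passed the 10% minimum of wells that the fit over all wells required, and C3, Lcn2 and Saa1 did not.

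The cells were single GFP-positive cells sorted from the dentate gyrus of 8 male Nestin:GFP mice, which carry a green reporter driven by Nestin, an intermediate filament gene of neural stem cells, and which were 2 months old. All mice received 150 pmol of an oligonucleotide in 3 µl with lipofectamine 2000 once a week for 5 weeks. Mice 1, 3, 5 and 7 received a negative control oligonucleotide (treatment label Control) and mice 2, 4, 6 and 8 a mimic of the microRNA miR-132 (treatment label miR-132). The cells of mice 1 to 4 were sorted on 17 April 2018 and those of mice 5 to 8 on 19 April 2018, with 2 mice of each treatment on a date. The series' design text speaks of an "AD" dentate gyrus, and no label gives these mice an Alzheimer genotype. The labels used here do not name the injection site.

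Each mouse contributed 96 wells, of which 75 to 92 had at least 50000 counts and at least 1000 genes with a count and were kept. The kept wells held a median of 646537 counts, and a mouse's kept wells summed to between 43889169 and 66897586 counts. Well names were tied to mice through the lists of names in the sample descriptions. The sample titles give another map, which puts 96 of 768 wells in the same mouse and 384 in the same treatment. Every difference between treatments below therefore rests on the description map, and the value under the title map is given where it was computed and turned the direction. Clusters made without the 7 genes were named by markers: 301 oligodendrocyte-like wells, 107 endothelial-like, 95 astrocyte-like, 84 pericyte-like, 38 neuroblast-like, 18 oligodendrocyte precursor-like and 16 fibroblast-like. Among the oligodendrocyte-like wells, a cluster of 87 had no oligodendrocyte marker among its 10 leading genes by fold, although all 10 markers were detected in it. The other 16 wells had at least 10045 genes each, against at most 5015 in any other kept well, with 2 such wells in every mouse. The labels speak of 94 sorted cells a mouse. Under the title map these 16 wells would lie in mice 1, 2 and 6, with 4, 8 and 4 wells. They were kept in the sums over all wells and left out of the cell types.

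Complement is a cascade of plasma proteins in which C4 is cut by the initiating proteases, and its fragments then help to assemble the enzyme that cuts C3, the central component. Acute phase proteins such as serum amyloid A and lipocalin 2 are secreted after inflammatory cytokine signals, classically by the liver. In the brain, C4b, Serpina3n, C3 and Lcn2 are familiar as genes of reactive astrocytes, and C4b and Serpina3n also as genes of oligodendrocytes in diseased tissue. Il33 encodes a nuclear alarmin of the interleukin-1 family that is abundant in oligodendrocytes, and Apod encodes apolipoprotein D, a small lipid carrier.

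The 7 genes had separate cell type patterns. C4b and Serpina3n were found in oligodendrocyte-like, astrocyte-like and precursor-like wells, Il33 in oligodendrocyte-like, astrocyte-like and fibroblast-like wells, and Apod chiefly in fibroblast-like and oligodendrocyte-like wells. Saa1 was found in pericyte-like wells. Lcn2 and C3 reached 10 CPM (the gene's counts as a share of the well's counts, times 1000000) only in astrocyte-like wells. CPM divided by transcript length in kilobases, the scale on which genes can be compared, put the mean level of Apod in fibroblast-like wells at 17406 and in oligodendrocyte-like wells at 2337. Il33 in oligodendrocyte-like wells stood at 715 on that scale, C4b there at 48.7, Serpina3n in astrocyte-like wells at 46.6, Saa1 in pericyte-like wells at 40.2, Lcn2 in astrocyte-like wells at 17.8 and C3 in astrocyte-like wells at 0.796.

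**Figure D1:**
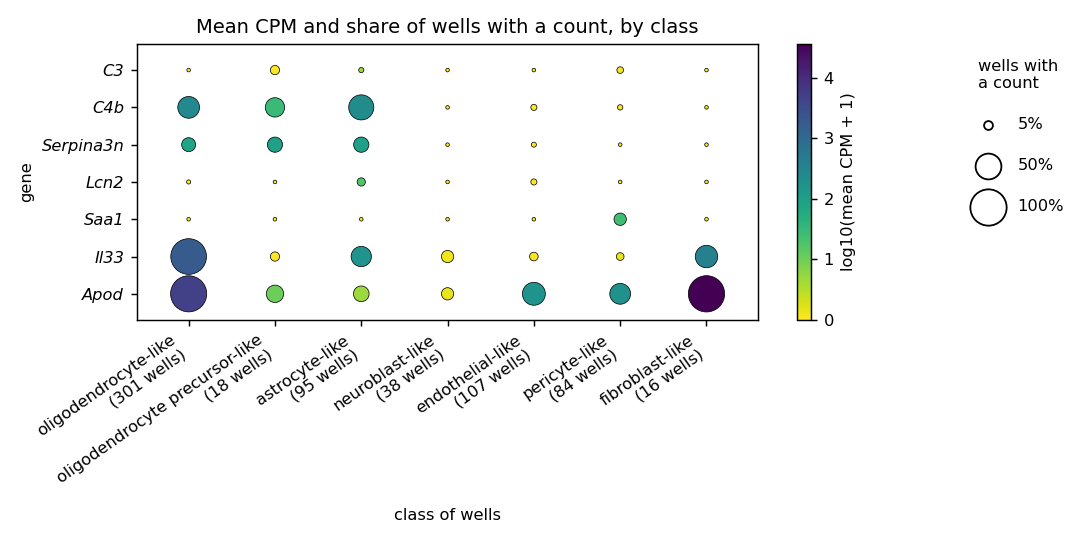
Each dot is a gene (rows) in a class of wells (columns); its area grows with the percent of wells with a count and its colour gives log10 of the mean CPM plus 1. Apod in fibroblast-like wells (mean 36100 CPM) is the darkest dot, and the dots of C4b and Serpina3n stand in oligodendrocyte-like, precursor-like and astrocyte-like wells.

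C4b encodes complement C4 in the mouse. Its near-identical copy C4a, which encodes the sex-limited protein, lies nearby on chromosome 17. Their longest transcripts in the GENCODE annotation, which lists C4a as a processed transcript, were identical at 96.1% of 5367 aligned bases, and 35.2% of the 50-base words of the C4b transcript also occurred in C4a. Reads from those words cannot be placed in either gene. A window of 90 bases from exon 21 of each gene is shown because it held the most differences of any such window inside an exon. Both are on the minus strand of GRCm38, printed 5′ to 3′, with C4b at chr17:34735430-34735519 and C4a at chr17:34816086-34816175. Capitals mark the 14 bases that differ.
C4b: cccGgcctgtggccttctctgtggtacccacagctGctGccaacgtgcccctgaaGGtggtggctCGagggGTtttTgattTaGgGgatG
C4a: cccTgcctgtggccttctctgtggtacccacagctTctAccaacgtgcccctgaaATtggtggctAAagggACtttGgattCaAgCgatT
The C4a row held 184 counts in 16 of the 675 wells, against 68205 counts of C4b in 174 wells. In oligodendrocyte-like wells C4a reached 0.613 CPM in mimic mouse 6, the mouse with the most C4b, and at most 0.035 CPM in the other 7 mice.

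C4b was present in a minority of glial wells and was high where present. It had a count in 106 of 301 oligodendrocyte-like wells (35.2%) and in 45 of 95 astrocyte-like wells (47.4%). In wells at 10 CPM or more the median was 349 CPM among oligodendrocyte-like and 356 CPM among astrocyte-like wells, and the highest single well held 5854 CPM. The mean of the mice was 289 ± 426 CPM (SD, n = 8) in oligodendrocyte-like and 229 ± 151 CPM (SD, n = 8) in astrocyte-like wells. Both spreads pool control and mimic mice, and the classes, which come from the same mice, were not tested against each other. In the 18 precursor-like wells the mean was 27.9 CPM, with a count in 5 wells. Levels in vascular wells were near 0. C4b had 4 counts in 2 of 107 endothelial-like wells (mean 0.084 CPM) and 1 count in 1 of 84 pericyte-like wells (mean 0.015 CPM), at median depths of 574174 and 625801 counts. No count was found in 38 neuroblast-like wells, which allows a share of up to 7.89%, or in 16 fibroblast-like wells, which allows up to 18.8%. These limits cover counting error only.

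In oligodendrocyte-like wells, summed per mouse, C4b stood at 101, 103, 60.4 and 29.8 CPM in control mice 1, 3, 5 and 7. In mimic mice 2, 4, 6 and 8 it stood at 23.9, 479, 1365 and 206 CPM. Mimic mice 6, 4 and 8 were above every control mouse and mimic mouse 2 was below every control mouse, so the groups overlapped. The means were 73.5 ± 35.1 CPM in control and 518 ± 594 CPM in mimic mice (SD, n = 4 each). The fitted log2 fold of mimic over control was 2.69 ± 1.00 (SE; edgeR quasi-likelihood test, p = 0.022, adjusted p = 0.99923). C4b had a count in 25.9 ± 4.07% of the oligodendrocyte-like wells of control mice and 48.2 ± 25.8% of those of mimic mice (two-sided exact permutation p = 0.171; SD, n = 4 each), and 2.5% of 7550 genes reached an exact p below 0.05 there. With 1 mouse left out, the difference in shares ran from 15.7 points without mimic mouse 4 (exact permutation p = 0.314) and 15.9 without mimic mouse 6 (exact permutation p = 0.314) to 33.8 without mimic mouse 2 (exact permutation p = 0.0286). It turned to -11.0 points under the title map. The mean level was higher in mimic mice by 150 CPM on 17 April and by 740 CPM on 19 April. Leaving out 1 mouse at a time gave log2 folds from 1.63 to 3.42, and the title map turned the sign, to -0.85.

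Of the 7377 genes tested in oligodendrocyte-like wells, edgeR called none at an adjusted p of 0.05 (0% called), and 219 had an unadjusted p below 0.05, which is 2.97%. DESeq2 called 3 (0.0407%). CPM did not overlap between the groups for 2.59% of these genes. In wells of all types the counts were 0 called of 8823 genes (0%), 395 at an unadjusted p below 0.05 (4.48%), and 12 by DESeq2 (0.136%). C4b was the only 1 of the 4 genes tested in both sets of wells to have an unadjusted p below 0.05, and it was not called. Without the filter on low counts, edgeR called C4b in oligodendrocyte-like wells (log2 fold 2.69, adjusted p = 8.6e-24), among 18 genes of 24813 (0.0725%). The same sums per mouse, which overlapped between the groups, gave p = 0.022 (edgeR) with the filter. This call therefore depends on the filter and is not read as a difference beyond the spread between mice. Over all kept wells without that filter edgeR called 84 genes (0.263%), C4b, Serpina3n and Saa1 among them.

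In all kept wells C4b summed to 72.6, 71.5, 48.9 and 25.7 CPM in control mice 1, 3, 5 and 7 and to 41.8, 305, 653 and 120 CPM in mimic mice 2, 4, 6 and 8. Mimic mouse 2 lay inside the control range and the other 3 mimic mice above it. The means were 54.7 ± 22.2 and 280 ± 272 CPM (SD, n = 4 each). The log2 fold was 2.28 ± 0.70 (SE; edgeR, p = 0.0074, adjusted p = 0.99974). Without mimic mouse 6 the log2 fold was 1.40, and without the many-gene wells the means were 53.7 ± 21.8 and 276 ± 266 CPM. Under the title map the log2 fold was -0.45. In sums over all wells, fewer cells of a type and less RNA per cell cannot be told apart: oligodendrocyte-like wells made up 26.8 to 59.6% of the kept wells of control mice and 30.8 to 50.7% of those of mimic mice.

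In astrocyte-like wells C4b stood at 83.1, 61.0, 117 and 137 CPM in control mice 1, 3, 5 and 7 and at 126, 355, 412 and 271 CPM in mimic mice 2, 4, 6 and 8. Control mouse 7 was above mimic mouse 2, and the other 3 mimic mice were above all control mice. The means were 99.4 ± 33.9 and 291 ± 124 CPM (SD, n = 4 each). The log2 fold was 1.51 ± 0.50 (SE; edgeR, p = 0.012, adjusted p = 0.99958), where the median of all 7480 genes tested was 0.21. None of these genes was called by edgeR (0%), 1.71% had an unadjusted p below 0.05, CPM did not overlap for 3.05%, and DESeq2 called 29 (0.388%). This fold kept its sign in each of 14 alternatives, the title map included (0.51).

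**Figure D2:**
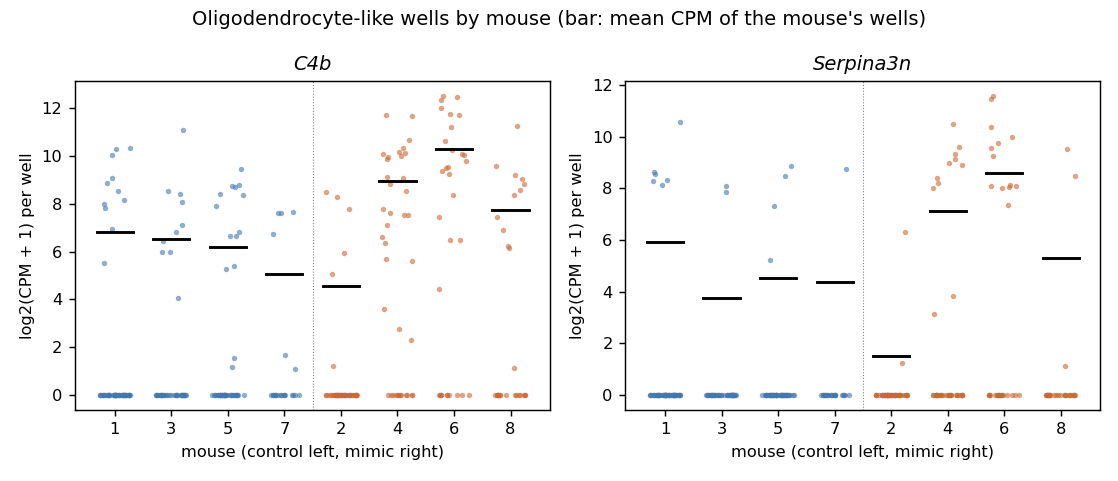
Each point is an oligodendrocyte-like well, with log2(CPM + 1) of C4b (left) and Serpina3n (right) on the vertical axis and the mouse on the horizontal axis; the bar is the mouse's mean CPM on that scale. C4b bars are lowest in mimic mouse 2 and highest in mimic mouse 6, and most points of Serpina3n lie at 0.

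C3, on chromosome 17 (57203970 to 57228136, minus strand, GRCm38), encodes the central complement component and shared none of its 50-base words with another gene. It was nearly absent: 184 counts in 5 of 675 wells, of which 180 counts (388 CPM) came from 1 astrocyte-like well of mimic mouse 4. The other 4 wells held 1 count each, 2 of them pericyte-like, 1 precursor-like and 1 a many-gene well, in mimic mice 4 and 8. No count was found in the 331 kept wells of control mice, which allows a share of up to 0.906%. Per mouse, C3 had a count in 0% of wells of control mice and 1.55 ± 1.93% of wells of mimic mice (exact permutation p = 0.429, adjusted p = 1; SD, n = 4 each), and a difference was not detectable at this number of wells. The difference turned to -0.312 points under the title map.

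The other cascade genes were also found in few wells. Of 24 genes for complement initiators and cascade proteins, 20 had a row here and none reached 10% of kept wells, so none was tested over all wells. The highest shares were 4.74% for C8g, 4.296% for Cfp, which encodes properdin, and 4.15% for Masp1, a lectin pathway protease. Masp1 had a count in 44.4% of precursor-like wells, at a mean of 92.7 CPM. C1s1 and C1ra, which encode proteases of the first component, were highest in pericyte-like wells, with mean levels of 73.0 CPM (23.8% of wells) and 27.9 CPM (9.52%). The C1q genes rested on very few wells: C1qb had a count in 2 of 659 wells of the cell types and C1qa in 3. Markers of microglia, the usual source of C1q in brain, were rare, with a count of Aif1 in 1 well and of Cx3cr1 and Tyrobp in 2 wells each. The 10 microglial markers summed to between 19.2 and 167 CPM in control mice and between 46.8 and 77.0 CPM in mimic mice, and their part in the C4b difference was not tested.

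Some complement regulators were plentiful in single cell types. Vtn, which encodes vitronectin, reached 39076 CPM in pericyte-like wells and is itself 1 of the 8 markers that named them. Serping1, the C1 inhibitor, reached 2435 CPM in fibroblast-like wells, Clu, clusterin, 12042 CPM in astrocyte-like wells and Sez6l2 445 CPM in oligodendrocyte-like wells. Of 20 regulators, 19 had a row and 10 were tested over all wells: 6 had a higher and 4 a lower fitted level in mimic mice. Their median log2 fold was 0.29, against 50.05% higher and a median of 0.00 among all genes tested. None was called. The regulator with the smallest p, Csmd3, stood at 57.1 ± 7.91 CPM in control and 35.9 ± 3.37 CPM in mimic mice (SD, n = 4 each). Its edgeR p was 0.018 and its adjusted p 0.99974.

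Serpina3n encodes a secreted serine protease inhibitor related to human alpha-1-antichymotrypsin. It lies on chromosome 12 (104406729 to 104414329, plus strand, GRCm38), and 6.90% of its 50-base words occurred in another gene, most of all in Serpina3e-ps. It had a count in 42 of 301 oligodendrocyte-like wells (14.0%), 16 of 95 astrocyte-like wells (16.8%) and 3 of 18 precursor-like wells (16.7%), with mean levels of 77.9, 96.2 and 88.4 CPM. Over mice, the oligodendrocyte-like mean was 84.7 ± 129 CPM and the astrocyte-like mean 100 ± 122 CPM (SD, n = 8 each). These classes were not tested against each other. A single endothelial-like well held 1 count, and neuroblast-like, pericyte-like and fibroblast-like wells held none.

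Serpina3n in oligodendrocyte-like wells stood at 57.8, 12.5, 22.7 and 18.0 CPM in control mice 1, 3, 5 and 7. It stood at 2.39, 118, 421 and 38.3 CPM in mimic mice 2, 4, 6 and 8. Mimic mice 4 and 6 were above all control mice, mimic mouse 8 was inside the control range and mimic mouse 2 below it. The log2 fold was 2.11 ± 1.19 (SE; edgeR, p = 0.107, adjusted p = 0.99923), from 0.79 to 2.97 with 1 mouse left out, and -0.07 under the title map. Without the filter on low counts edgeR called it (2.10, adjusted p = 3.4e-05), a call that depends on the filter. In all kept wells the levels were 47.5, 25.004, 15.7 and 5.77 CPM in control mice 1, 3, 5 and 7 and 12.9, 89.0, 232 and 19.7 CPM in mimic mice 2, 4, 6 and 8. The groups overlapped there too, with a log2 fold of 1.98 ± 0.95 (SE; edgeR, p = 0.061, adjusted p = 0.99974), which was 0.60 without mimic mouse 6. Among the alternatives that kept all mice, the lowest log2 fold was 0.02. Without the many-gene wells Serpina3n fell under the 10% minimum and could not be fitted. The astrocyte-like log2 fold was 1.99 ± 1.94 (SE; edgeR, p = 0.327, adjusted p = 0.99958), with control mice 1 and 7 at 0 CPM and mimic mice 4 and 6 at 195 and 317 CPM. It was 0.72 without mimic mouse 6 and 4.57 without control mouse 3, the ends of the range with 1 mouse left out, and 3.55 with the mean of CPM per well.

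C4b and Serpina3n were often found in the same oligodendrocyte-like wells. Among the 39 wells with Serpina3n at 10 CPM or more, 26 (66.7%) also had C4b at that level, against 72 of the 262 other wells (27.5%). Seen the other way, the 26 wells were a smaller share of the 98 wells with C4b. The overlap came mostly from 2 mice: it was 10 of 10 wells with Serpina3n in mimic mouse 4 and 11 of 13 in mimic mouse 6. It was 3 of 6 in control mouse 1, 1 of 4 in control mouse 5, 1 of 2 in mimic mouse 8 and 0 of the 4 such wells of mice 2, 3 and 7. Wells with C4b at 1000 CPM or more numbered 25, of which 11 were from mimic mouse 6, 9 from mimic mouse 4, 3 from control mouse 1 and 1 each from control mouse 3 and mimic mouse 8. Wells of a mouse share its sort and library preparation, so these counts are a description.

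Lcn2, on chromosome 2 (32384633 to 32388252, minus strand, GRCm38), encodes lipocalin 2, which binds bacterial iron carriers and is secreted in the acute phase. Only 2 wells held it at 10 CPM or more, at 1087 and 457 CPM (572 and 206 counts), both astrocyte-like and both from mimic mouse 6. The other 5 wells with a count held 1 or 2 counts. Lcn2 had a count in 0.305 ± 0.610% of the wells of control mice and 1.75 ± 1.16% of those of mimic mice (exact permutation p = 0.0857, adjusted p = 1; SD, n = 4 each). Among astrocyte-like wells no control well of 37 had a count, which allows a share of up to 8.11%, against 4 of 58 mimic wells. That limit treats wells of the same mouse as independent. Per mouse the shares there were 0% in control and 7.39 ± 11.9% in mimic mice (exact permutation p = 0.429; SD, n = 4 each).

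Saa1 encodes serum amyloid A1, an apolipoprotein of the acute phase. It lies on chromosome 7 (46740497 to 46742980, minus strand, GRCm38) back to back with its copy Saa2, and 13.2% of its 50-base words occurred in Saa2. The stretches just before both start sites are shown because both genes were found in pericyte-like wells. Of the 250 bases before the start, 249 could be aligned and 238 of these (95.6%) were identical. Each sequence below runs 5′ to 3′ from 200 to 51 bases before the start site, from RefSeq promoters on GRCm38.p6, with Saa1 on the minus strand at chr7:46743031-46743180 and Saa2 on the plus strand at chr7:46751633-46751782. Capitals mark the match to TTGCNNAAT, a form of the site bound by C/EBP factors.
Saa1: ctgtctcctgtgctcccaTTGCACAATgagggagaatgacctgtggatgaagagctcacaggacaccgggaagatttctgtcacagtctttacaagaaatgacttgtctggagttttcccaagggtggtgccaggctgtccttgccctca
Saa2: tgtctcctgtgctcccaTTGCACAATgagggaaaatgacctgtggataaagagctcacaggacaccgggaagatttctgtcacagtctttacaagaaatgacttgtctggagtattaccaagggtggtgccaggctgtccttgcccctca
The match began 182 bases before the start of Saa1 and 183 before that of Saa2. Searched on both strands, TTGCNNAAT occurred in 787 of 32851 promoters of 300 bases (2.40%), among them that of C3. Promoters of 6 of the 7 genes were in the table used, that of C4b not among them. TTCNNNGAA, a form of the STAT site, occurred in none of the 6 genes' promoters and in 8.30% of all promoters. A form of the NF-kB site, also searched on both strands, occurred in the promoters of C3 (3 matches) and Serpina3n (2 matches), in none of the other 4 genes' promoters, and in 20.73% of all promoters. A match is a description of letters only.

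Saa1 was found in control mice and was not detected in the pericyte-like wells of mimic mice. In pericyte-like wells its summed level was 22.7, 197, 60.6 and 22.96 CPM in control mice 1, 3, 5 and 7 and 0 CPM in each of mimic mice 2, 4, 6 and 8. The wells with a count were 9 of 45 in control mice, with 16 to 482 counts each, and 0 of 39 in mimic mice, which allows a share of up to 7.69%. At a finer clustering (Leiden resolution 2), 14 of the pericyte-like wells formed a smooth muscle-like cluster, and Saa1 was at 0 CPM in it. The division of these 14 wells between the treatments was not examined. Summed over each group, the control level was 46.5 CPM. A floor of 3 counts over the whole mimic group would be 0.119 CPM, which makes the ratio 390-fold. This ratio covers counting error of reads only and is no lower limit for the difference between treatments. Counted over wells, up to 7.69% was allowed in mimic mice against 20% found in control mice. This limit treats wells of the same mouse as independent, so it does not bound the difference between treatments either. The ratio rests on 9 wells, and with 1 mouse left out it ran from 237-fold (without mimic mouse 8) and 243-fold (without control mouse 3) to 632-fold (without control mouse 7). The share of wells with a count was 25.1 ± 11.7% in control and 0% in mimic mice (SD, n = 4 each), a difference of -25.1 percentage points with an exact two-sided permutation p = 0.0286, the smallest that 4 mice against 4 allow. Groups that do not overlap in this share were found for 2.26% of the 6199 genes examined in pericyte-like wells. The edgeR fit gave p = 0.0057 and an adjusted p of 1, and its fold is not quoted because it depends on the prior count where a group is at 0. Of the 5644 genes in that fit none was called by edgeR (0%), 0.638% had an unadjusted p below 0.05, CPM did not overlap for 2.39%, and DESeq2 called 14 (0.248%), Saa1 among them (adjusted p = 0.00022).

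In mimic mice the share of pericyte-like wells with Saa1 was lower by 29.1 points on 17 April and by 21.1 points on 19 April. Because the groups did not overlap, the direction could not differ between the dates. Under the title map the difference was -2.61 points (exact permutation p = 0.6), the edgeR log2 fold turned to 1.09, and the difference in shares over all kept wells turned to 0.238 points. In all kept wells Saa1 summed to 2.71, 11.7, 4.85 and 6.24 CPM in control mice 1, 3, 5 and 7 and to 0, 0, 0.039 and 0.060 CPM in mimic mice 2, 4, 6 and 8, without overlap. A count was found in 4.49 ± 1.41% and 0.565 ± 0.653% of wells (exact permutation p = 0.0286, adjusted p = 1; SD, n = 4 each), and 1.6% of 8837 genes did not overlap in this share. No oligodendrocyte-like, astrocyte-like, endothelial-like, neuroblast-like, precursor-like or fibroblast-like well had a count of Saa1. The other 8 wells with a count were many-gene wells, 6 from control mice and 2 from mimic mice 6 and 8. Without the many-gene wells the shares were 2.80 ± 0.661% and 0%, again without overlap.

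Saa2 was found in 7 pericyte-like wells, 6 from control mice and 1 from mimic mouse 6. Per mouse it summed to 26.7, 0.701, 103 and 0 CPM in control mice 1, 3, 5 and 7 and to 0, 0, 24.5 and 0 CPM in mimic mice 2, 4, 6 and 8. The groups overlapped for Saa2, in which a mimic well held 272 CPM. Saa3 and Saa4 had a count in 1 well each. Of the 14 near-identical or related rows that were listed, 9 had a row here, and those of the Serpina3 cluster had a count in 1 well each, the largest being 496 counts of Serpina3g in 1 endothelial-like well of control mouse 7.

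**Figure D3:**
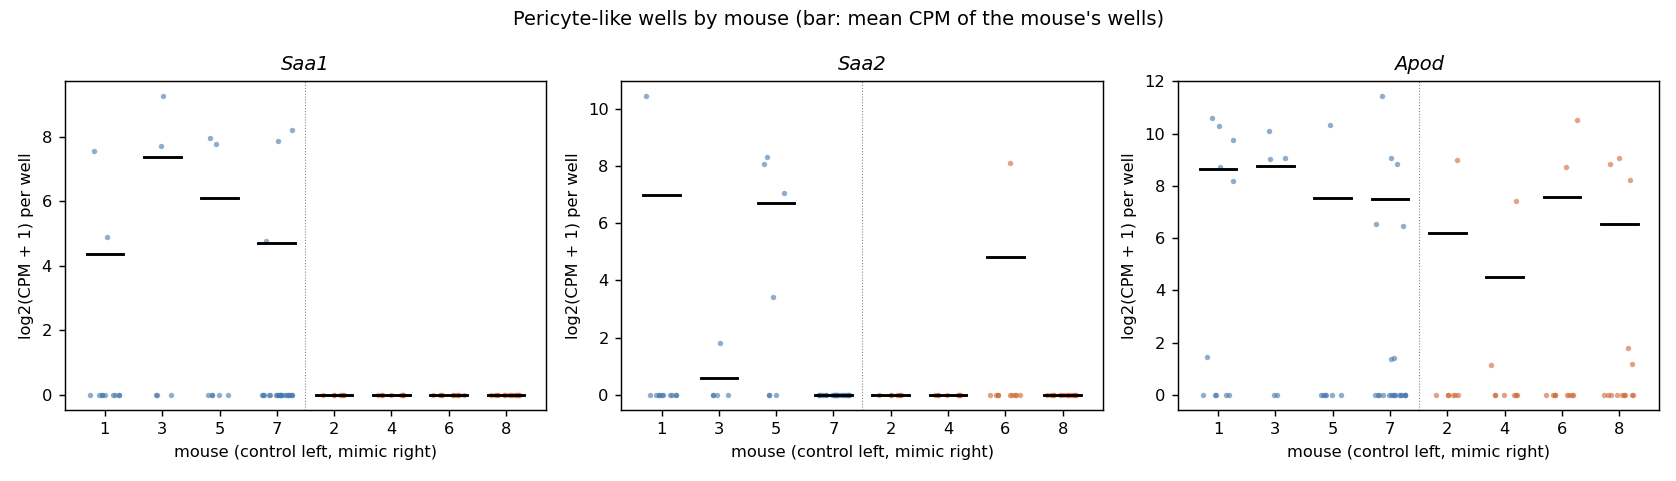
Each point is a pericyte-like well, with log2(CPM + 1) of Saa1, Saa2 and Apod on the vertical axes and the mouse on the horizontal axis; bars are the mouse's mean CPM on that scale. All 39 wells of mimic mice lie at 0 for Saa1, a single well of mimic mouse 6 is above 0 for Saa2, and Apod is present in both groups.

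Il33 was found in nearly every oligodendrocyte-like well. The gene, on chromosome 19 (29925114 to 29960718, plus strand, GRCm38), had a count in 291 of 301 oligodendrocyte-like wells (96.7%), with a median of 1588 CPM and quartiles of 955 and 2491 CPM. Its mean over mice was 1848 ± 537 CPM there and 197 ± 264 CPM in astrocyte-like wells (SD, n = 8 each), where 30.5% of wells had a count. In fibroblast-like wells 6 of 16 had a count, with a mean of 375 CPM over wells, which could not be given a spread over mice. Precursor-like, neuroblast-like, endothelial-like and pericyte-like wells stood at 0.062 to 0.427 CPM.

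Il33 in oligodendrocyte-like wells stood at 1184, 1590, 2076 and 1573 CPM in control mice 1, 3, 5 and 7. In mimic mice 2, 4, 6 and 8 it stood at 1590, 2581, 2782 and 1619 CPM. Mimic mice 4 and 6 were above all control mice, and the other 2 lay inside the control range. The log2 fold was 0.41 ± 0.21 (SE; edgeR, p = 0.080, adjusted p = 0.99923), and -0.03 under the title map. The share of wells with a count was 96.8 ± 2.62% in control and 97.0 ± 2.99% in mimic mice (SD, n = 4 each). In all kept wells the log2 fold was 0.17 ± 0.31 (SE; edgeR, p = 0.601, adjusted p = 0.99974), and its sign turned without mimic mouse 4 (-0.04) and without control mouse 7 (-0.01). In astrocyte-like wells it was -0.90 ± 0.71 (SE; edgeR, p = 0.236, adjusted p = 0.99958), but control mouse 5 alone stood at 994 CPM while the other 7 mice stood between 57.8 and 248 CPM, and without it the fold was 0.25.

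Il33 was higher in oligodendrocyte-like wells that also had C4b. The median was 2091 CPM in wells with C4b at 10 CPM or more and 1355 CPM in the others. The medians with and without C4b were 2776 and 1357 CPM in mimic mouse 4 and 3016 and 1343 CPM in mimic mouse 6. They were 1497 and 1090 CPM in control mouse 1, 1927 and 1166 CPM in control mouse 3, 1980 and 1112 CPM in control mouse 7 and 1752 and 1419 CPM in mimic mouse 8. The order was the other way in control mouse 5 (1719 and 1763 CPM) and mimic mouse 2 (1211 and 1476 CPM). Thus 6 of 8 mice had the higher median in wells with C4b, on 4 to 24 such wells a mouse. Over the 301 wells the Spearman correlation of Il33 with C4b was 0.35, a description of wells that share mice and depth.

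**Figure D4:**
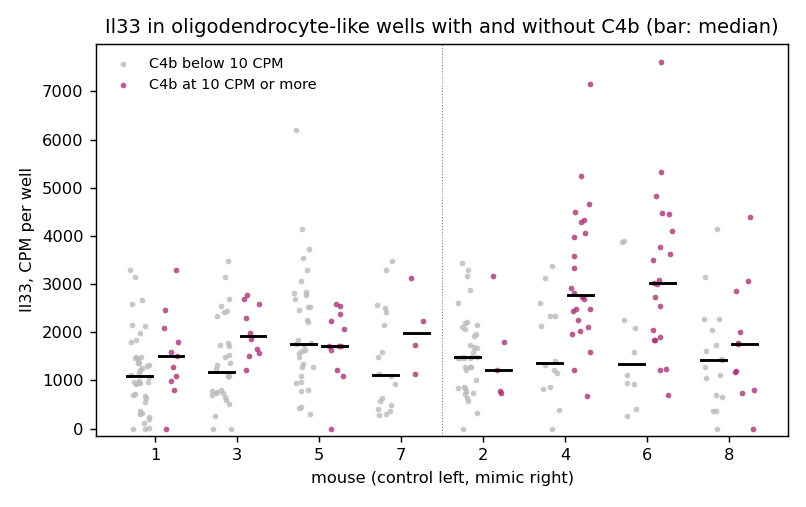
Each point is an oligodendrocyte-like well, with its Il33 CPM on the vertical axis and the mouse on the horizontal axis; wells with C4b below 10 CPM are grey, those at 10 CPM or more are purple, and bars are medians. The purple median is above the grey one in 6 of 8 mice, with 3016 against 1343 CPM in mimic mouse 6.

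Apod, on chromosome 16 (31296192 to 31314808, minus strand, GRCm38), was the most abundant of the 7 genes per length. All 16 fibroblast-like wells held it, between 13762 and 76025 CPM with a median of 33619 CPM. In oligodendrocyte-like wells 298 of 301 had a count, with a mean over mice of 4957 ± 756 CPM (SD, n = 8). Lower and patchy levels were seen in pericyte-like wells, at 196 ± 147 CPM (SD, n = 8) with a count in 32.1%, and in endothelial-like wells, at 167 ± 107 CPM (SD, n = 7) with a count in 39.3%. These last 2 were not tested against each other. Precursor-like and astrocyte-like wells stood at 9.64 and 3.87 CPM on average over wells.

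In oligodendrocyte-like wells Apod stood at 4080, 5328, 4684 and 5230 CPM in control mice 1, 3, 5 and 7 and at 4074, 5786, 5859 and 4881 CPM in mimic mice 2, 4, 6 and 8. The groups overlapped, and the log2 fold was 0.07 ± 0.13 (SE; edgeR, p = 0.6, adjusted p = 0.99923). Its sign turned without mimic mouse 4 (-0.01) and under the title map (-2.7e-05). Over all kept wells it was -0.06 ± 0.17 (SE; edgeR, p = 0.729, adjusted p = 0.99974), with a sign that turned under 4 of 17 alternatives, the title map among them (0.27).

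In vascular wells Apod had lower fitted levels in mimic mice, and neither fit passed the threshold. Within the pericyte-like class, the 14 smooth muscle-like wells of the finer clustering held a mean of 12.4 CPM and the other 70 held 221 CPM. Pericyte-like wells held 493, 441, 169 and 144 CPM in control mice 1, 3, 5 and 7 and 66.4, 20.3, 200 and 89.95 CPM in mimic mice 2, 4, 6 and 8, with overlap through mimic mouse 6. The log2 fold was -1.78 ± 0.98 (SE; edgeR, p = 0.101, adjusted p = 1) and 0.81 under the title map. With 1 mouse left out it ran from -2.40 without control mouse 7 to -1.03 without mimic mouse 4. The 2 sort dates differed in this value, with mimic lower by 423 CPM on 17 April and by 11.2 CPM on 19 April. Endothelial-like wells held 383, 324 and 227 CPM in control mice 3, 5 and 7 and 42.4, 1.87, 181 and 174 CPM in mimic mice 2, 4, 6 and 8, without overlap. Control mouse 1, with 4 such wells at 109 CPM, was below the minimum of 5 wells and was not used. With it the groups would overlap. CPM did not overlap between these 7 mice for 6.16% of the 5799 genes tested, of which edgeR called none (0%), 1.97% had an unadjusted p below 0.05, and DESeq2 called 33 (0.569%). The log2 fold of Apod was -2.12 ± 1.12 (SE; edgeR, p = 0.096, adjusted p = 0.99954), where the median of all genes was 0.30. With 1 mouse left out it ran from -2.75 to -0.63, the last without control mouse 3, and it was -1.40 without mimic mouse 4. The share of endothelial-like wells with a count was 38.9 ± 9.62% in control (SD, n = 3) and 40.7 ± 4.78% in mimic mice (SD, n = 4).

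**Figure D5:**
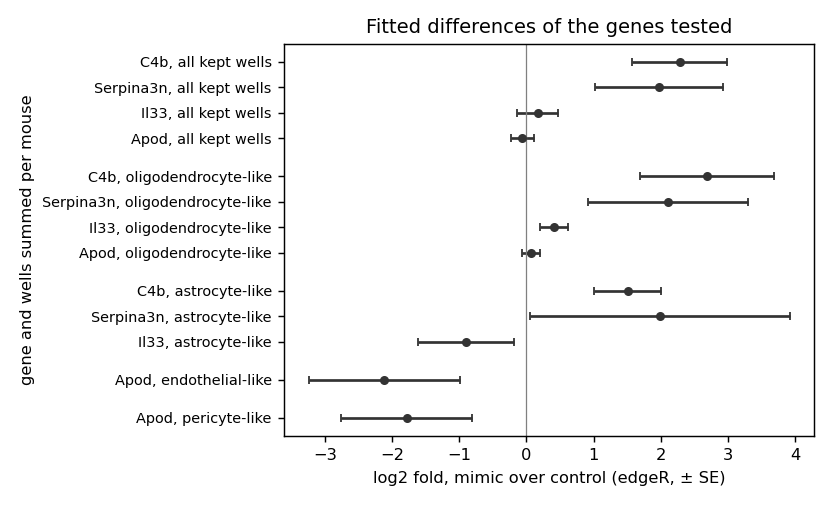
Points are edgeR log2 folds of mimic over control, with bars of ± SE, and the vertical line is 0. Each gene and set of wells that could be tested is shown, except Saa1 in pericyte-like wells, which was tested and left out of the plot. C4b lies to the right of 0 in all 3 sets of wells (2.28, 2.69 and 1.51), Apod lies to the left in endothelial-like and pericyte-like wells (-2.12 and -1.78), and none passed an adjusted p of 0.05.

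Receptors for the products of these genes were present for some and nearly absent for others. Il1rl1, which encodes the binding subunit of the receptor for interleukin-33, had a count in 0.444% of kept wells, whereas Il1rap, its partner subunit, had one in 91.0% of oligodendrocyte-like wells at a mean of 344 CPM. The receptors for complement fragments were rare: C3ar1 had a count in 0.593% of wells, C5ar2 in 0.296%, C5ar1 in none, Cr2 in 3.11%, and the integrin genes Itgam, Itgb2 and Itgax in at most 0.889%. Lrp2, a large endocytic receptor, had a count in 1.63%. Bsg, which encodes basigin, stood at 14352 CPM in endothelial-like wells, where Scarb1, a lipoprotein receptor, stood at 514 CPM. Lrp1 stood at 1060 CPM in precursor-like wells, and Slc22a17, a lipocalin 2 receptor, had a count in 49.2% of kept wells. Of 18 receptor genes, 14 had a row and 5 were tested: 3 were higher and 2 lower in mimic mice. Their median log2 fold was 0.03, and none was called.

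The other lists of the acute phase and of reactive glia were read in the same way over all kept wells, where 50.05% of all 8823 genes had a higher fitted level in mimic mice and the median log2 fold was 0.00. These lists were chosen with earlier results of these data known, and some genes stand in several of them. Their counts and medians are therefore descriptions only. Of 4 acute phase genes tested among 22 listed, all 4 were higher, with a median of 0.60, and Mt1, a metallothionein gene, had the smallest p (365.6 ± 81.7 CPM in control and 581 ± 190 CPM in mimic mice, SD, n = 4 each). Its edgeR p was 0.025 and its adjusted p 0.99974. Of 12 genes of acute phase cytokine signalling, 9 were higher and 3 lower, with a median of 0.24. Of the genes listed for reactive astrocytes in general, 6 were tested, with 4 higher and a median of 0.39. All 5 genes tested of the A1 list, the astrocyte genes known from inflammation (median 0.89), and both tested of the A2 list, those known from ischaemia (median 0.54), were higher. Gfap, the astrocyte filament gene, stood at 114 ± 34.6 CPM in control and 239 ± 150 CPM in mimic mice (SD, n = 4 each). The edgeR p of Gfap was 0.016 and its adjusted p 0.99974. The 10 astrocyte markers, Gfap among them, summed to 2670 to 5386 CPM in control and 2599 to 7990 CPM in mimic mice, and astrocyte-like wells were 7.87 to 16.0% of the wells of control and 10.7 to 23.9% of those of mimic mice. Their part in these values was not tested. In astrocyte-like wells alone, Gfap stood at 1123 ± 361 CPM in control and 1543 ± 1141 CPM in mimic mice (SD, n = 4 each). Its log2 fold there was 0.33 ± 0.34 (SE; edgeR, p = 0.360, adjusted p = 0.99958). Tested there were 3 genes of the general list (median log2 fold 0.33), 1 of the A1 list (1.38) and 1 of the A2 list (0.34). The median of all genes there was 0.21, and none of these list genes had an unadjusted edgeR p below 0.05.

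Of 22 genes listed for reactive oligodendrocytes, 18 were tested over all wells, 15 of them higher and 3 lower in mimic mice. The median of their log2 folds was 0.41. In oligodendrocyte-like wells 14 were tested, 13 of them higher, with a median of 0.43 against 0.01 for all genes there. None passed the threshold in either set. Over all lists, with the 7 genes themselves left out, 54 genes were tested and 10 had an unadjusted p below 0.05, beside 4.48% of all genes. Because the lists were chosen with earlier results of these data known, this count lends no independent support to a difference. The 3 smallest p-values among these 54 belonged to H2-D1, a class I histocompatibility gene, Sgk1, a hormone-responsive kinase gene, and B2m, the light chain of class I molecules. H2-D1 stood at 411, 271, 374 and 631 CPM in control mice 1, 3, 5 and 7 and at 395, 895, 1346 and 1197 CPM in mimic mice 2, 4, 6 and 8, with a log2 fold of 1.1005 ± 0.27 (SE; edgeR, adjusted p = 0.83461). Sgk1 stood at 149, 136, 239 and 153 CPM and at 245, 359, 333 and 288 CPM in the same order, without overlap, which 2.33% of all genes tested shared, and its log2 fold was 0.84 ± 0.22 (SE; edgeR, adjusted p = 0.83461). B2m had a log2 fold of 0.84 ± 0.27 (SE; edgeR, adjusted p = 0.99974). Under the title map the folds of H2-D1 and B2m turned to -0.21 and -0.25. Among the cell types, H2-D1 and B2m were highest in endothelial-like wells, at 2223 and 2074 CPM. Endothelial-like wells were 4.49, 8.00, 14.1 and 21.95% of the kept wells of control mice 1, 3, 5 and 7 and 8.70, 17.3, 26.7 and 25.3% of those of mimic mice 2, 4, 6 and 8. The 9 endothelial markers summed to 1471 to 6920 CPM in control and 2716 to 7747 CPM in mimic mice, and their part in these values was not tested. Within cell types, the log2 fold of H2-D1 was 2.04 ± 0.95 in oligodendrocyte-like and 1.38 ± 1.51 in astrocyte-like wells (SE; edgeR). It was 0.94 ± 0.42 in endothelial-like and 0.73 ± 0.57 in pericyte-like wells (SE; edgeR). None of these folds was called, and all rest on the description map.

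Genes with the most similar pattern were found over 34 sums per mouse and class, by the Pearson correlation of log2(CPM + 1), a measure that mainly reflects the class. For C4b they were Ncam2 (0.96), Igsf11 (0.96) and Cmtm5 (0.95). For Serpina3n they were Cdh19 (0.89), Lrp1b (0.89) and C4b itself (0.88), while Serpina3n was not among the 3 nearest to C4b. For Il33 they were Fgfr2 (0.99), Pcdh9 (0.98) and Olig1 (0.97), and for Apod they were Pde8a (0.88), Gatm (0.86) and Abcg1 (0.85). Over single wells of the class in which the gene was found most often, by the Spearman correlation, the nearest to Il33 among 301 oligodendrocyte-like wells was C4b (0.35), followed by Pllp (0.34) and Glul (0.28). In 95 astrocyte-like wells the nearest to C4b was Slc39a1 (0.41) and the nearest to Serpina3n was Zfc3h1 (0.50), which was also among the 3 nearest to C4b (0.39). In 16 fibroblast-like wells the nearest to Apod was Msl1 (0.76). The points share libraries and depth, and weak values in sparse counts are no finding.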

How the data were processed

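Single cells were processed with Smart-seq2 without molecular identifiers, per the labels' protocols, and STAR, Subread and featureCounts 1.5.1 with build mm10 are named in the submitters' processing notes. The authors deposited 1 table of raw counts per gene and well. Members and gene lists were chosen with earlier results of these data known. Wells with at least 50000 counts and 1000 genes were kept and clustered (scanpy 1.11.5, Leiden resolution 1) without the 7 genes. Counts were summed per mouse, the replicate, and TMM-scaled sums were fitted in edgeR 4.0.16 by its quasi-likelihood test with the sort date in the model. Genes found in under 10% of the wells summed were not fitted, p-values were adjusted by Benjamini-Hochberg over all genes fitted, and the threshold was 0.05. Shares of wells with a count were compared by exact permutation of mice. Mice with under 5 wells of a class were left out of its fit. In simulated counts, 19% of genes changed 2-fold and 80% of those changed 4-fold were found over all kept wells (8813 genes), and 14% and 47% in oligodendrocyte-like wells (7355 genes). The simulation used the spread fitted by edgeR without a date effect, and many genes were changed at once. Its rates are averages over genes and are not rates for the 7 genes, of which C4b varied widely between mice. Alternatives were DESeq2 1.42.0, no low-count filter, other scalings and well limits, leaving out each mouse, and the map of wells by sample title. Named genes are the 7 members, the list genes with the smallest p or the highest level in a class, the related rows, the receptors, and the 3 genes most like each member; C8g and Csmd3 were chosen for naming after their values were seen. Sequences were read from RefSeq promoters (GRCm38.p6) and GENCODE transcripts (GRCm38).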

Additional observations from a re-analysis of the deposited data

Results flagged for a closer look

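Among 34 sets of 4 mice of 1 treatment in which a gene reached 1 CPM in a mouse, 8 held a mouse far from the other 3. Chance alone gives about 1 in 20 for normally distributed values. These sums are sparse and the sets share wells, so the 8 are not read against that rate. Over all kept wells, C3 stood at 4.15 CPM in mimic mouse 4 against 0 to 0.030 CPM in the other mimic mice, and Lcn2 at 15.3 CPM in mimic mouse 6 against 0.015 to 0.023 CPM. In astrocyte-like wells the same mice stood apart, with C3 at 55.1 CPM in mimic mouse 4 against 0 and Lcn2 at 119.7 CPM in mimic mouse 6 against 0 to 0.074 CPM. These 4 values rest on the 3 wells described for C3 and Lcn2. Il33 in astrocyte-like wells stood at 994 CPM in control mouse 5 against 83.5 to 100.1 CPM in the other control mice. Apod in astrocyte-like wells stood at 25.4 CPM in control mouse 3 against 0 to 1.66 CPM, and at 4.59 CPM in mimic mouse 4 against 0 to 0.594 CPM in the other mimic mice. Il33 in pericyte-like wells stood at 1.98 CPM in control mouse 1 against 0 in the other control mice.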

How the results depend on the processing

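Of 507 alternative values computed, 466 kept their direction, side of the threshold or size. No gene was called by edgeR in any of the 5 sets of wells, while DESeq2 called 12, 3, 29, 33 and 14 genes and edgeR without the low-count filter 84, 18, 2, 8 and 1, in all kept, oligodendrocyte-like, astrocyte-like, endothelial-like and pericyte-like wells in that order. Without that filter C4b (2.27) and Serpina3n (1.96) were called over all kept wells, with Saa1 (-8.43, adjusted p = 0.019 by edgeR). The groups overlapped for C4b and Serpina3n, and with the filter neither was called. Under the title map the log2 folds over all kept wells reversed to -0.45 for C4b, 0.27 for Apod, -0.21 for H2-D1 and -0.25 for B2m. Those in oligodendrocyte-like wells reversed to -0.85 for C4b, -0.070 for Serpina3n, -0.032 for Il33 and -2.7e-05 for Apod, and those in pericyte-like wells to 0.81 for Apod and 1.09 for Saa1. Differences in shares of wells with a count reversed to -1.17 points for C4b, -0.312 for C3, -0.387 for Serpina3n, 3.14 for Il33 and 0.238 for Saa1 over all kept wells, and to -11.0 for C4b and -3.25 for Serpina3n in oligodendrocyte-like wells. With the mean of CPM per well Apod over all kept wells was 0.024. With 1 mouse left out, the log2 fold of Il33 over all kept wells ran from -0.037 to 0.53, that of Apod from -0.14 to 0.080, that of Apod in oligodendrocyte-like wells from -0.015 to 0.16 and that of Il33 in astrocyte-like wells from -1.24 to 0.25. The exact p of Saa1 in pericyte-like wells was 0.0571 with any 1 mimic mouse left out and 0.0286 with any 1 control mouse left out. The cause of these changes was not tested. No paired analysis was possible because control mice are numbered 1, 3, 5 and 7 and mimic mice 2, 4, 6 and 8, so the groups share no number. Apart from the fits without the low-count filter, p-values measure only the spread between these mice, which within a treatment also differ in sort date. Single wells limit C3, Lcn2 and Saa1, which rest on 5, 7 and 17 wells.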
